A study of Mus musculus with 6 samples.

Results

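The 9 transcripts followed here in sorted uterine neutrophils mark lipid-associated macrophages: Trem2, Apoe, Gpnmb, Spp1, Fabp5, Lgals3, Cd9, Lpl and Pltp. They were taken by symbol through the GENCODE M21 annotation, each matched 1 Ensembl ID, and together they were 9 of 43432 rows in the deposited tables. All 9 passed the filter on low counts, so that all 9 were among the 12908 genes tested. The libraries came from C57BL/6 mice that were 4 weeks old and carried Pgrcre/+, in which Cre is expressed from the progesterone receptor gene and acts in the cells that use that gene, among them uterine epithelium. Both groups shared 1 engineered genotype, and no library came from a uterus without it. The normoxia group (3 libraries) was kept in ambient air, and the hyperoxia group (3 libraries) in a chamber at 60% oxygen between postnatal days 18 and 28, a period of 10 days. The sort took CD45+ CD11b+ cells with high Ly6G from uteri, and the comparison asked how added oxygen for the animal altered the RNA of these neutrophils.

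Lipid-associated macrophages are cells that take up dead cells, myelin or lipoproteins and store or pass on the lipid. TREM2 is a surface receptor that binds lipids and lipoproteins, among them particles that carry apolipoprotein E, and signals through the adaptor TYROBP. The other members cover the steps around it: LPL releases fatty acids from lipoproteins, PLTP moves phospholipids between them, FABP5 carries fatty acids inside the cell, and GPNMB, osteopontin (encoded by Spp1), galectin-3 (Lgals3) and the tetraspanin CD9 are surface or secreted proteins that such macrophages make in quantity. Several of these genes are also read in other cells, galectin-3 and CD9 among them, so that the set is not specific to macrophages.

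Libraries held 38683293 to 61715617 counts over genes, and between 17437 and 18984 genes had at least 1 count. Values below are CPM, counts scaled by TMM to a common library total, and 3 counts corresponded to between 0.047 and 0.0771 CPM. Neutrophil transcripts dominated: S100a8, a neutrophil calcium-binding protein, stood between 13240 and 44970 CPM in the 6 libraries, and Ly6g, which encodes the antigen used for the sort, between 38.9 and 351.2 CPM. Summed over the 15 monocyte and macrophage markers, the libraries held 552 to 746 CPM in normoxia and 1029 to 1458 CPM in hyperoxia. Hyperoxia replicate 2 stood apart from the other libraries over all genes. The chi-square per degree of freedom between libraries was 473 to 726 for pairs with it and 29.8 to 221 for the other pairs. Granule genes were high there, Mmp8 at 3708 CPM against 174 to 920 CPM in the others. In bulk RNA, a larger number of cells of a type and more RNA per cell cannot be told apart.

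Trem2, Apoe and Pltp had the largest departures among the members by p value, and their groups did not overlap. The 250 bases upstream of their RefSeq start sites (build GRCm38.p6) are shown because these are the 3 genes that DESeq2 called. Capitals mark matches to 5 short motifs, searched on both strands, and no match in these windows overlapped another. The motif GAGGAA is the core bound by PU.1, a factor of myeloid cells, and by other ETS factors. The AP-1 family binds TGANTCA, in which N is any base. The box GGGCGG is bound by SP1 and is common near start sites. The E-box searched was CACGTG, the form read by the MiT/TFE and MYC families. The TATA box was searched as TATAAA and had no match in the stretches printed.
Trem2, chr17:48346151-48346400, plus strand: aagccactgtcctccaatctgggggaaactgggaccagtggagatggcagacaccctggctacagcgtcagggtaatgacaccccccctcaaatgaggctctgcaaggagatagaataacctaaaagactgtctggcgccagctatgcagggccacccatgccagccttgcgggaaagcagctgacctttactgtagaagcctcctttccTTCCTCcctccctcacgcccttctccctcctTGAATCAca
Apoe, chr7:19699189-19699438, minus strand: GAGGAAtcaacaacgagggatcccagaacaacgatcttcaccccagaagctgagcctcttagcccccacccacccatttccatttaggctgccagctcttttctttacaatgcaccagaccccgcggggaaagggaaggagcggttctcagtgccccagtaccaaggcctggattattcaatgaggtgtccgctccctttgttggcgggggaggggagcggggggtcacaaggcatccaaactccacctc
Pltp, chr2:164857709-164857958, minus strand: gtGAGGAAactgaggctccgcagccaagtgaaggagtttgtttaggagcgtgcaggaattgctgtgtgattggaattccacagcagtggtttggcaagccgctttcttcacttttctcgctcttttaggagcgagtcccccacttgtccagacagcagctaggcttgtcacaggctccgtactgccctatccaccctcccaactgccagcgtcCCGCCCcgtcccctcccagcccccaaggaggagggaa
Each of the 3 windows held GAGGAA on one strand, with the match beginning at -40 from the start in Trem2, -250 in Apoe and -248 in Pltp. Over all 32851 windows in the table, 23.3% held it in the upstream part. Among the 7 members with a window, 4 held it there. Spp1, which DESeq2 did not call, was the other, with the match at -113. Trem2 also had an AP-1 match beginning at -9 (6.75% of windows), and Pltp an SP1 match at -37 (32.7%). The E-box was absent from the windows of all 7 members that the table listed, where 6.02% of windows held it. Fabp5 and Lpl were not matched in the table. A match is a description of letters and shows no binding.

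Trem2 (ENSMUSG00000023992, GRCm38 chromosome 17, 48346401 to 48354147) read 4.66, 5.13 and 4.68 CPM under normoxia, against 9.39, 14.1 and 19.9 CPM under hyperoxia. The normoxia libraries lay close together, and the lowest hyperoxia library lay above all of them. Means were 14.4 ± 5.25 CPM against 4.82 ± 0.264 CPM (SD, n = 3 each), a 3-fold difference and a log2 difference of 1.58 ± 0.29 (SE), with a 95% interval of 0.92 to 2.25. In edgeR's quasi-likelihood test the adjusted p was 0.106 over all genes, which missed the 0.05 threshold, and in DESeq2 it was 1.81e-04.

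Apoe (ENSMUSG00000002985, chromosome 7, 19696109 to 19699188) encodes the lipid carrier of lipoproteins, a ligand of TREM2. Its normoxia libraries held 552.7, 587 and 521 CPM, and its hyperoxia libraries 834, 1655 and 1562 CPM. Replicates 2 and 3 of hyperoxia were high and replicate 1 lay nearer to normoxia, without overlap. The log2 difference was 1.29 ± 0.29 (SE, 95% interval 0.62 to 1.95); the adjusted p was 0.143 by edgeR and 0.00156 by DESeq2.

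Pltp (ENSMUSG00000017754, chromosome 2, 164839518 to 164857711), the phospholipid transfer protein, had the largest difference of the 9. It held 2.60, 3.31 and 2.44 CPM in normoxia and 5.04, 18.4 and 18.7 CPM in hyperoxia. Hyperoxia replicate 1 was again the lowest of its group, though above all of normoxia. The log2 difference was 2.34 ± 0.47 (SE, 95% interval 1.26 to 3.41); the adjusted p was 0.126 by edgeR and 8.68e-05 by DESeq2. Exons of Pltp overlap those of Ctsa, a lysosomal carboxypeptidase gene on the opposite strand, and without a stated strand setting their reads cannot be told apart there. Mean CPM of Ctsa was 527.4 ± 96.2 under hyperoxia, beside 566 ± 29.3 under normoxia (SD, n = 3 each), and its log2 difference was -0.10 ± 0.22 (SE).

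Lpl (ENSMUSG00000015568, chromosome 8, 68880491 to 68907448), the secreted lipase, held 1.54, 2.33 and 2.88 CPM in normoxia and 1.797, 8.15 and 10.1 CPM in hyperoxia. Replicates 2 and 3 of hyperoxia lay above normoxia, whereas replicate 1 fell inside the normoxia range. Its log2 difference of 1.57 ± 0.57 (SE, 95% interval 0.27 to 2.88) reached an adjusted p of 0.309 by edgeR and 0.0793 by DESeq2. Its counts were 66 to 112 in the normoxia libraries and 71 to 520 in the hyperoxia libraries.

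**Figure D1:**
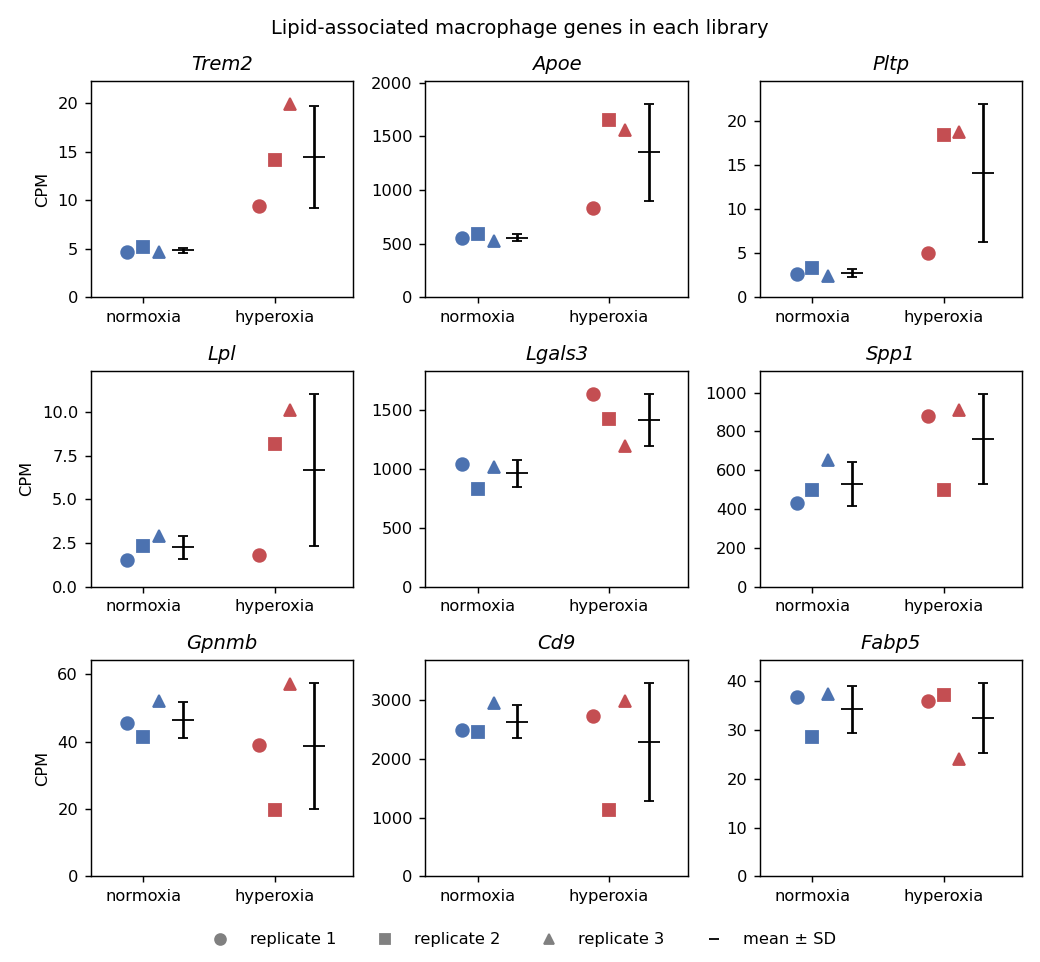
CPM of each of the 9 genes (vertical axes, each from 0) in the 3 normoxia and 3 hyperoxia libraries, with symbols for replicates and the mean ± SD beside each group. Trem2, Apoe, Pltp and Lgals3 did not overlap between groups, and hyperoxia replicate 1 was the lowest of its group for Trem2, Apoe, Pltp and Lpl.

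Lgals3 (ENSMUSG00000050335, chromosome 14, 47367751 to 47386160), which encodes the sugar-binding protein galectin-3, read 1041, 829 and 1011 CPM under normoxia, against 1631, 1425 and 1191 CPM in hyperoxia. The groups did not overlap, but in hyperoxia the order of the libraries was the reverse of that for Trem2, with replicate 1 the highest. The log2 difference was 0.56 ± 0.23 (SE, 95% interval 0.04 to 1.08); the adjusted p was 0.355 by edgeR and 0.232 by DESeq2.

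Spp1 (ENSMUSG00000029304, chromosome 5, 104435118 to 104441050), the osteopontin gene, held 432.9, 499 and 655 CPM in normoxia and 879, 496 and 912 CPM in hyperoxia. Replicates 1 and 3 of hyperoxia were above all normoxia libraries and replicate 2 was inside their range. The log2 difference of 0.53 ± 0.29 (SE, 95% interval -0.15 to 1.20) had an adjusted p of 0.489 in edgeR. Exons of the gene model Gm42793 lie over Spp1 on the same strand, so reads of this stretch are uncertain.

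Gpnmb (ENSMUSG00000029816, chromosome 6, 49036546 to 49070929), a glycoprotein of lysosomes and the cell surface, held 45.6, 41.5 and 52.2 CPM in normoxia and 39.1, 19.6 and 57.1 CPM in hyperoxia. Hyperoxia libraries lay on both sides of normoxia, and the log2 difference was -0.27 ± 0.35 (SE, 95% interval -1.07 to 0.53, adjusted p of 0.797 in edgeR). Cd9 (ENSMUSG00000030342, chromosome 6, 125460266 to 125494791), a tetraspanin that organises membrane proteins, held 2487, 2453 and 2956 CPM in normoxia and 2726, 1135 and 2979 CPM in hyperoxia. Replicate 2 of hyperoxia was the low library for both genes. For Cd9 the log2 difference was -0.21 ± 0.36 (SE, 95% interval -1.02 to 0.61, adjusted p of 0.856 in edgeR). Without that library the differences were 0.07 for Gpnmb and 0.13 for Cd9. The gene model Gm26728, which overlaps Cd9 exons on the opposite strand, averaged at most 1.61 CPM in a group.

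Fabp5 (ENSMUSG00000027533, chromosome 3, 10012548 to 10016607), the fatty acid carrier, held 36.8, 28.7 and 37.4 CPM in normoxia and 35.9, 37.1 and 24.1 CPM in hyperoxia. Replicates 1 and 2 of hyperoxia lay inside the normoxia range and replicate 3 below it. Its log2 difference of -0.08 ± 0.23 (SE) had a 95% interval of -0.61 to 0.45, and the adjusted p was 0.915 in edgeR.

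Counted over the set, 0 of 9 members passed an adjusted p of 0.05 in edgeR, where 0% of the 12908 genes tested passed in either direction. With an unadjusted p under 0.05, 5 of 9 stood higher in hyperoxia and 0 lower, beside 9.10% of all genes higher and 3.91% lower. These 5 were Trem2, Pltp, Apoe, Lpl and Lgals3. DESeq2 called 3 of 9 higher (Trem2, Apoe and Pltp) and 0 lower, beside 3.57% and 0.403% of all genes, and limma-voom called 0. Groups did not overlap for 4 members, all higher in hyperoxia, where 9.57% of genes had every hyperoxia library above and 10.3% every hyperoxia library below. Log2 differences were above 0 for 6 members, as they were for 53.7% of genes. The median over the members was 0.56, against 0.04 over all genes tested. Without hyperoxia replicate 1, edgeR called 4 members higher, which were Trem2, Apoe, Lpl and Pltp, beside 1.21% of genes called higher. Without hyperoxia replicate 2, the library that stood apart, the log2 differences were 1.62 for Trem2, 1.13 for Apoe, 2.11 for Pltp, 1.42 for Lpl, 0.58 for Lgals3 and 0.78 for Spp1. In that setting edgeR called 0 members higher, beside 0% of genes, and DESeq2 called 3, beside 3.07% of genes. Without normoxia replicate 1 or without normoxia replicate 2, the members under an unadjusted p of 0.05 were 3, Trem2, Apoe and Pltp. The share of all genes under that p is not given for these fits.

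**Figure D2:**
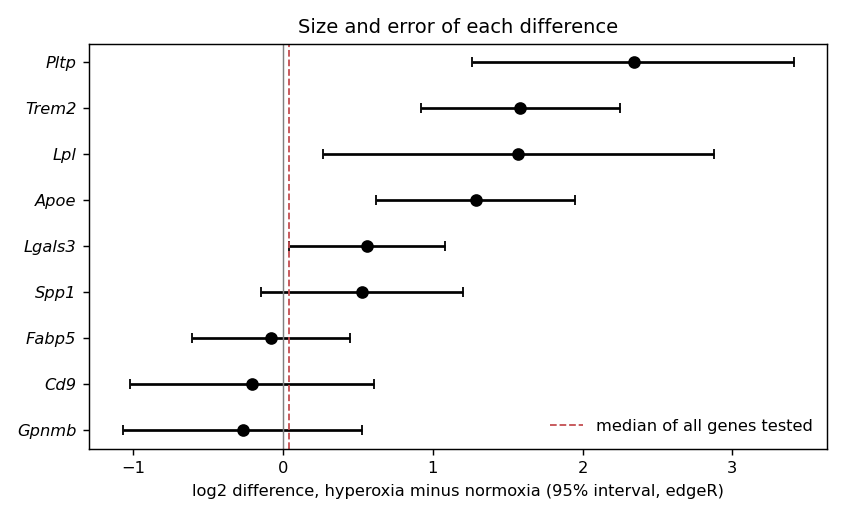
Log2 difference of each gene, hyperoxia minus normoxia, with its 95% interval from edgeR (horizontal axis); the dashed line is the median of all genes tested, 0.04. Intervals of Pltp, Trem2, Lpl, Apoe and Lgals3 lay above 0, and those of Spp1, Fabp5, Cd9 and Gpnmb included it.

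The spread within a group also differed between members. In normoxia the coefficient of variation was 5.48% for Trem2 and 5.93% for Apoe, and in hyperoxia 36.4% and 33.3%. It was 55.6% for Pltp, 65.0% for Lpl, 48.5% for Gpnmb and 43.8% for Cd9 in hyperoxia, where Lgals3 had the lowest, 15.6%. With 3 libraries a group, these are descriptions and the spread was not compared by a test.

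The profiles over the 6 libraries fell close together for some pairs. Likeness was measured as the root mean square distance between log2 CPM profiles after each gene was centred on its own mean. Gpnmb and Cd9 were the closest of the 36 pairs, at 0.13, and Trem2 and Apoe came next, at 0.23. Fabp5 and Lgals3 followed at 0.34, a distance above the root mean square of their own centred profiles, 0.24 and 0.32. The farthest pair was Cd9 and Pltp, at 1.53. Set against the normoxia mean, Trem2 stood at 0.96, 1.54 and 2.04 in the hyperoxia libraries and Apoe at 0.59, 1.58 and 1.5, whereas Cd9 stood at 0.06, -1.21 and 0.18.

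**Figure D3:**
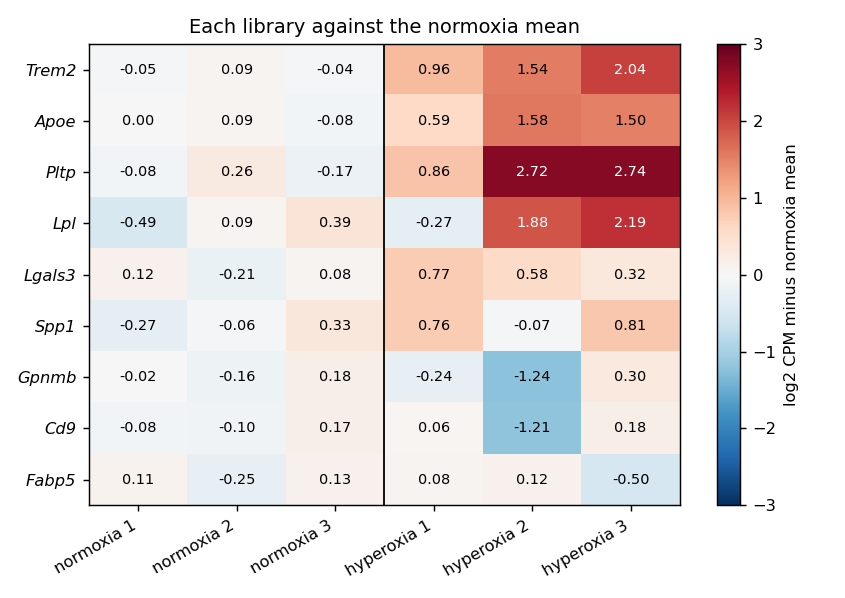
Log2 CPM of each gene (rows) in each library (columns) minus the mean of the 3 normoxia libraries, in colour and as printed values. Trem2, Apoe, Pltp and Lpl shared high values in hyperoxia replicates 2 and 3, and Gpnmb and Cd9 shared a low value in hyperoxia replicate 2 of -1.24 and -1.21.

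Among 5057 other genes with a mean log2 CPM of at least 3, the profiles nearest to Trem2 were those of the chemokine gene Ccl7 (distance 0.13), Rab3il1 (0.13) and the MHC class II invariant chain gene Cd74 (0.14). Nearest to Apoe were Anxa5 (0.10), which encodes a protein that binds phosphatidylserine, Cd48 (0.15) and Rab3il1 (0.17). Pltp had Cd72 (0.30), H2-DMa (0.37) and Ly86 (0.39) as its neighbours, all known from antigen-presenting cells. The genes nearest to Lgals3 were Asprv1 (0.05), Esd (0.09) and Pabpc1 (0.12), and those nearest to Fabp5 were the Fc receptor gene Fcgr4 (0.04), Thap4 (0.07) and Phyh (0.09). Alcam, an adhesion molecule gene, was among the nearest to both Cd9 (0.08) and Gpnmb (0.13). For Lpl no gene came closer than the stromal proteoglycan gene Dcn, at 0.43, with Tmem109 and Crip1 next, both at 0.44.

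Levels between genes were compared per kilobase of merged exons (RPKM). In normoxia the order was Cd9 (1288 ± 138 RPKM, SD, n = 3), Lgals3 (517 ± 61.9), Spp1 (321 ± 69.2), Apoe (259 ± 15.4), Fabp5 (9.61 ± 1.36), Gpnmb (7.13 ± 0.830), Pltp (1.09 ± 0.180), Trem2 (0.975 ± 0.0534) and Lpl (0.215 ± 0.0639). Ranges of neighbours in this order overlapped for Spp1 with Apoe and for Pltp with Trem2. Cd9 ranked 51st and Trem2 6726th among 12864 tested genes with a length. In hyperoxia Apoe (632 ± 210 RPKM) stood before Spp1 (463 ± 140 RPKM), with overlapping ranges, and Pltp (5.49 ± 3.05 RPKM) came close to Gpnmb (5.93 ± 2.88 RPKM). With the longest transcript as the length, Apoe already stood before Spp1 in normoxia, and Gpnmb before Fabp5.

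**Figure D4:**
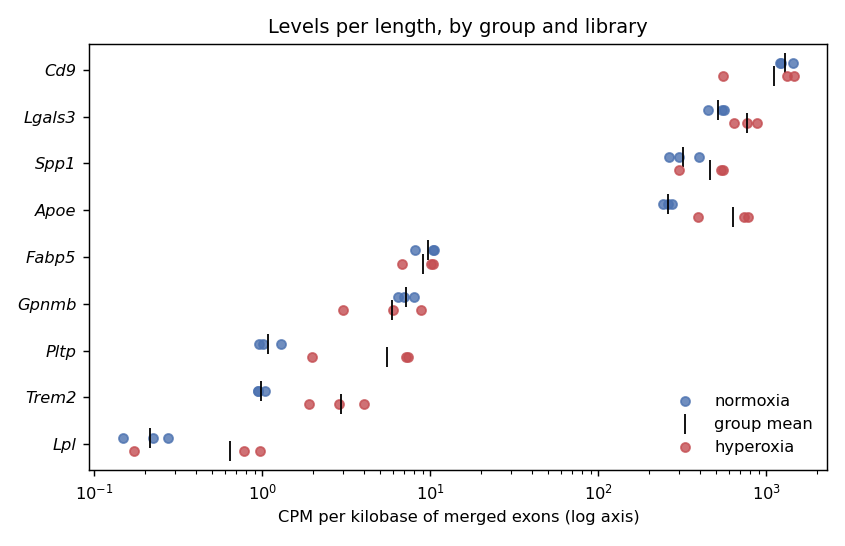
CPM per kilobase of merged exons on a log axis for each gene, with points for the 3 normoxia and 3 hyperoxia libraries and a bar at each group mean. Cd9, Lgals3, Spp1 and Apoe lay above the other 5 genes in all libraries, and Lpl was the lowest of the 9 in each group.

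The partners of TREM2 were followed in a list of 21 signalling genes, all tested. In edgeR 0 of 21 passed, beside 0% of all genes tested. With an unadjusted p below 0.05, 2 stood higher and 0 lower, beside 9.10% and 3.91% of all genes. DESeq2 called 2 higher and 0 lower, beside 3.57% and 0.403% of all genes. These shares over all genes also stand beside the lists that follow. The median log2 difference over the 21 genes was 0.05, beside 0.04 over all genes. The genes called by DESeq2 were Ms4a4a, which encodes a membrane protein of the MS4A family whose genes have similar sequence (log2 difference 2.44 ± 0.47, SE), and Lat2, which encodes an adaptor protein (1.87 ± 0.37). Ms4a6d of the same family as Ms4a4a differed by 0.65 ± 0.32 and the phospholipase gene Plcg2 by 0.58 ± 0.37, both with overlapping groups. Tyrobp, the adaptor through which TREM2 signals, held 3510, 3362 and 3705 CPM in normoxia and 3015, 3097 and 3186 CPM in hyperoxia. All 3 hyperoxia libraries were below normoxia, and the log2 difference was -0.19 ± 0.20 (SE, 95% interval -0.65 to 0.28, adjusted p of 0.749 in edgeR). Tyrobp serves several receptors of myeloid cells. In CPM it exceeded Trem2 by 656 to 792 times in the normoxia libraries and by 160 to 321 times in the hyperoxia libraries. Per kilobase the ratios were 4860 to 5870 in normoxia and 1190 to 2380 in hyperoxia, which rest on 4946 merged exon bases for Trem2.

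Genes of lipoprotein and cholesterol handling had a median log2 difference of 0.24 over 22 tested genes, of which 0 passed in edgeR. With an unadjusted p below 0.05, 6 stood higher and 0 lower, and DESeq2 called 3 higher and 0 lower. Among these were the scavenger receptor genes Msr1 (log2 difference 2.15 ± 0.26, SE) and Cd36 (2.31 ± 0.55). Msr1 read 5.83, 5.88 and 5.01 CPM under normoxia, against 18.2, 32.6 and 23.5 CPM under hyperoxia, and the groups did not overlap. Nr1h3, which encodes the sterol receptor LXR-alpha, a regulator of Apoe and Abca1, differed by 1.03 ± 0.41, with hyperoxia replicate 2 at 2.76 CPM and the others at 7.34 and 8.76 CPM. The cholesterol hydroxylase gene Ch25h differed by 1.48 ± 0.54 and the lipoprotein receptor gene Lrp1 by 0.23 ± 0.30. The cholesterol exporter gene Abca1 averaged 64.7 ± 36.6 CPM against 64.2 ± 7.62 CPM (SD, n = 3 each). Apoc2, the LPL cofactor gene, and Apoc1 lie near Apoe in the genome and differed by 0.84 ± 0.39 and 0.60 ± 0.44, with overlapping groups.

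Helpers of LPL and genes of fatty acid handling had a median of 0.32 over 16 tested genes. In edgeR 0 passed, 5 stood higher and 0 lower with an unadjusted p below 0.05, and DESeq2 called 5 higher and 0 lower. Gpihbp1, which anchors LPL on capillary endothelium, held 0.164, 0.333 and 0.463 CPM in normoxia and 0.886, 2.48 and 2.48 CPM in hyperoxia (log2 difference 2.61 ± 0.57, SE). Lmf1, the factor that folds LPL, differed by 1.38 ± 0.36, and Angptl4, which inhibits LPL, by 1.76 ± 0.48. The relative of Fabp5 that is typical of fat, endothelium and macrophages, Fabp4, held 0.866, 1.29 and 2.34 CPM in normoxia and 3.87, 11.03 and 17.5 CPM in hyperoxia (2.85 ± 0.58). The nuclear receptor gene Pparg differed by 1.90 ± 0.41. Plin2, the coat protein gene of lipid droplets, had a mean CPM of 1120 ± 275 under hyperoxia, beside 870 ± 97.8 under normoxia (SD, n = 3 each), with overlapping groups. Of 6 fat cell markers, Plin1 had 0 counts in all 6 libraries and Adipoq had 3 to 18 counts. Retn, the resistin gene, had 502 to 741 counts, and its log2 difference was -0.49 ± 0.22, with all hyperoxia libraries below normoxia. The list summed to 17.0 to 17.5 CPM in normoxia and 10.6 to 15.4 CPM in hyperoxia. Most of each sum was Retn, at 16.44 to 16.95 CPM in normoxia and 9.98 to 15.0 CPM in hyperoxia.

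A further list of 31 genes with a row and a test, taken from lipid-associated macrophages and disease-associated microglia, had a median of 0.10, which was -0.05 in limma-voom. Here 0 passed in edgeR, 8 stood higher and 0 lower with an unadjusted p below 0.05, and DESeq2 called 6 higher and 0 lower. The receptor tyrosine kinase gene Axl held 5.97, 2.62 and 3.21 CPM in normoxia and 12.1, 13.4 and 15.5 CPM in hyperoxia (log2 difference 1.8 ± 0.33, SE). Anxa5 differed by 1.25 ± 0.26, the galectin gene Lgals1 by 1.33 ± 0.29 and the growth factor gene Igf1 by 2.85 ± 0.70. Igf1 had 14 to 30 counts in the normoxia libraries. Some lists share genes: Igf1 is also counted as a stromal marker, and Ch25h, named above, is also counted here. Cd68, a lysosomal membrane protein gene used as a macrophage marker, stood at 583, 509 and 569 CPM in normoxia and 586.5, 567 and 580.4 CPM in hyperoxia, a log2 difference of 0.06 ± 0.19.

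MiT/TFE factors, which drive lysosomal genes and Gpnmb, and their targets had a median of -0.11 over 18 tested genes. In edgeR 0 passed, 1 stood higher and 1 lower with an unadjusted p below 0.05, and DESeq2 called 0. Those were Glb1, a lysosomal galactosidase gene (1.01 ± 0.30, SE), and Tfeb (-0.46 ± 0.19). Mitf differed by -0.29 ± 0.27 and Tfec by 0.08 ± 0.52. The lysosomal channel gene Mcoln1 differed by -0.51 ± 0.31 and the sialidase gene Neu1 by -0.32 ± 0.23, both with overlapping groups.

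Receptors and partners of osteopontin and galectin-3 had a median of 0.22 over 12 tested genes, with 0 passed in edgeR, 2 standing higher and 0 lower with an unadjusted p below 0.05, and 2 called higher by DESeq2. The galectin-3 binding protein gene Lgals3bp held 39.1, 30.8 and 33.7 CPM in normoxia and 75.3, 105 and 75.7 CPM in hyperoxia (1.30 ± 0.22, SE, adjusted p of 0.106 in edgeR). The integrin gene Itgb5 differed by 1.24 ± 0.22, also with an adjusted p of 0.106. The osteopontin receptor gene Cd44 differed by -0.20 ± 0.22, the integrin gene Itgb1 by -0.48 ± 0.23 and the engulfment receptor gene Mertk by 1.41 ± 0.62.

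Relatives of 3 members were compared as families that also count the member itself (Cd9, Lgals3 or Fabp5), each with 0 genes past the threshold in edgeR. Of 15 tetraspanins, 3 stood higher with an unadjusted p below 0.05 and DESeq2 called 2 (Tspan31, 1.34 ± 0.28, SE, and Tspan4, 1.65 ± 0.51), with a family median of -0.08 that turned to 0.08 without normoxia replicate 1 and to 0.01 without hyperoxia replicate 3. Cd63, which like Cd9 is abundant on vesicles, differed by -0.60 ± 0.43, with hyperoxia replicate 2 the lowest at 95.1 CPM, the library that was also lowest for Cd9. Of 5 tested galectins, Lgals3 among them, all lay above 0, as did 53.7% of all genes, and DESeq2 called Lgals1. Lgals4 differed by 0.34 ± 0.33 and Lgals9 by 0.21 ± 0.28. Tspan3 differed by 0.86 ± 0.36, Tspan32 by 1 ± 0.52 and Cd81 by 0.47 ± 0.34, with overlapping groups. Among fatty acid binding proteins only Fabp4 and Fabp5 passed the filter on low counts.

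**Figure D5:**
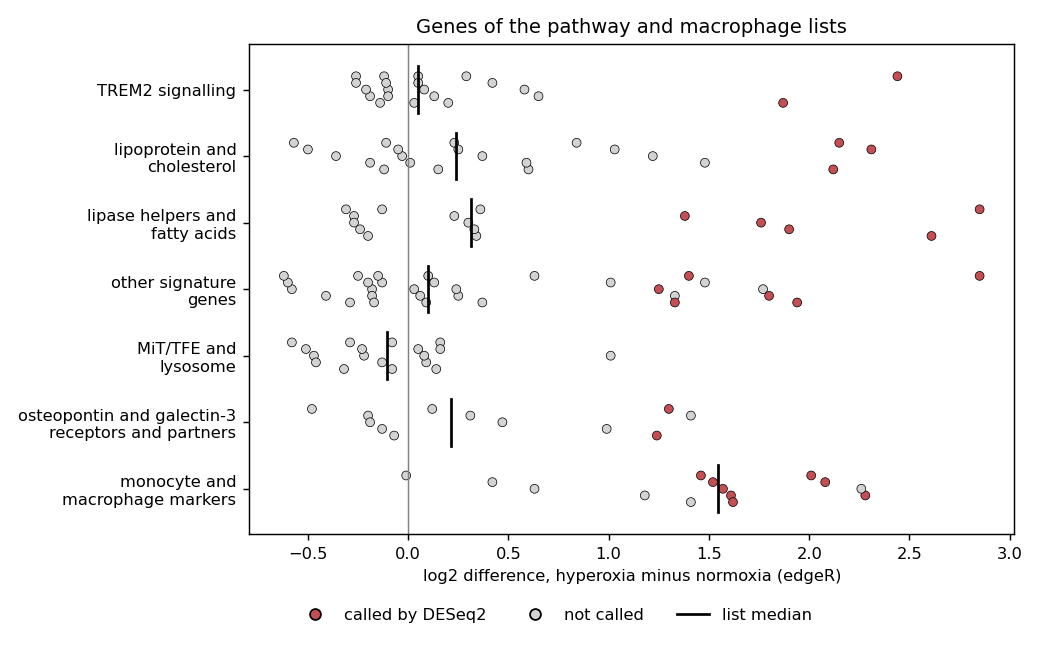
Log2 differences of the genes in 6 lists of partners and related genes and in the monocyte and macrophage list (horizontal axis), 1 point per tested gene, filled red where DESeq2 called the gene, with a bar at each list's median. The macrophage list had the highest median of those plotted, 1.55, and the other medians lay between -0.11 and 0.32.

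Markers of several other cell types differed between the groups, most lists with medians above 0, and their part in the members' differences was not tested. Of 14 tested monocyte and macrophage markers, 13 were above 0 and 8 were called higher by DESeq2, beside 53.7% and 3.57% of all genes. The median of these markers was 1.55. Ms4a7, a macrophage membrane protein gene, read 11.1, 10.1 and 10.6 CPM under normoxia, against 25.9, 41.2 and 60.2 CPM under hyperoxia, and the complement gene C1qb 54.4, 59.1 and 64.5 CPM, against 99.2, 122.9 and 289 CPM. Csf1r differed by -0.01 ± 0.22 (SE), and the resident macrophage marker Cd163 had 0 to 1 counts in normoxia and 2 to 26 in hyperoxia. Dendritic cell and MHC class II markers summed to 456 to 493 CPM in normoxia and 691 to 2078 CPM in hyperoxia. Endothelial markers summed to 10.0 to 16.9 and 29.6 to 78.3 CPM, and smooth muscle markers to 17.6 to 24.5 and 26.5 to 65.7 CPM. Stromal markers summed to 21.1 to 60.5 CPM in normoxia and to 40.6, 215 and 254 CPM in hyperoxia replicates 1, 2 and 3. The summed MHC class II markers had the same library order in hyperoxia, as did Trem2, Pltp and Lpl. Eosinophil markers had a median of -0.26 over 4 tested genes, 2 above 0 and 2 below. Siglecf stood below normoxia in all 3 hyperoxia libraries (-1.16 ± 0.37, SE). Alox15 stood above normoxia in all 3 (1.68 ± 0.40, SE) and was the only marker of this list that DESeq2 called. With all 6 libraries edgeR called 0 genes of any list, and also 0 with any library other than hyperoxia replicate 1 left out. Without hyperoxia replicate 1, edgeR called 4 macrophage, 3 dendritic cell, 2 endothelial, 2 stromal and 1 smooth muscle marker higher, beside 1.21% of genes. In the same setting it called 2 genes of lipoprotein handling, 2 helpers of LPL, 3 of the further signature genes and 2 partners of osteopontin and galectin-3 higher. Epithelial markers summed to 117.5 to 256 CPM in normoxia and to 318, 18.6 and 268 CPM in hyperoxia, where the low library was the one low for Cd9 and Gpnmb.

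Each member was also set against the summed monocyte and macrophage list in its own library. In the normoxia libraries the 3 most abundant genes of that list were Ly6c2, Csf1r and Fcgr1, whose differences lay below the list's median. Ly6c2, listed as a monocyte antigen gene, held 236, 126 and 141 CPM in normoxia and 373, 659 and 111 CPM in hyperoxia, a log2 difference of 1.18 ± 0.56 (SE). The neutrophil sort antigen gene Ly6g had the same order over the 6 libraries, with 196, 351 and 38.9 CPM in hyperoxia. The summed list was 1458 CPM in hyperoxia replicate 2 and 1098 CPM in replicate 3, so that Ly6c2 was a larger part of it in replicate 2. Csf1r held 149.8 to 219 CPM over the 6 libraries, and the Fc receptor gene Fcgr1 differed by 0.42 ± 0.33. Per 100 CPM of the summed macrophage list, Trem2 held 0.625, 0.929 and 0.843 CPM in normoxia and 0.912, 0.966 and 1.81 CPM in hyperoxia, and Apoe 74.1, 106 and 94.0 CPM and 81.1, 113 and 142 CPM, so that both overlapped between groups. Pltp held 0.348, 0.599 and 0.440 CPM in normoxia and 0.489, 1.26 and 1.70 CPM in hyperoxia. Cd9 held 334, 445 and 533 CPM in normoxia and 265, 77.8 and 271 CPM in hyperoxia, without overlap, and Gpnmb and Fabp5 were likewise lower in each hyperoxia library. The summed list was itself higher in every hyperoxia library, at 1029 to 1458 CPM against 552 to 746 CPM in normoxia. A gene with similar CPM in both groups is therefore lower per 100 CPM of it. Before this division, the CPM of Cd9, Gpnmb and Fabp5 overlapped between groups. Against the summed complement genes C1qa, C1qb and C1qc alone, a denominator chosen after the data were seen, the ratio of group means, hyperoxia over normoxia, was 0.959 for Apoe, 1.04 for Lpl and 1.85 for Pltp. Trem2 held 4.7, 4.76 and 3.93 CPM per 100 CPM of these genes in normoxia and 5.29, 6.17 and 3.59 CPM in hyperoxia. The ratio was 0.354 for Cd9, 0.319 for Gpnmb and 0.430 for Fabp5. The sum of these complement genes was 99.2 to 119 CPM in normoxia and 177 to 554 CPM in hyperoxia. These ratios describe the libraries and carry no test.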

How the data were processed

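RNA-seq of 6 libraries was analysed from the raw count tables, 1 per library, deposited by the authors with no scaling. STAR 2.4.2a, DESeq2 1.16.1 and GRCm38 appear, with no role given, per the submitters' processing notes. What counted the reads, its strand setting and its annotation are not given in the sources used here. Of 43432 Ensembl IDs, 42548 matched GENCODE M21 (GRCm38).

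Counts were tested across all 12908 genes left by filterByExpr with edgeR 4.0.16 in R 4.3.3: TMM scaling, a robust quasi-likelihood test without covariates, Benjamini-Hochberg adjustment, and standard errors from the F statistic. CPM uses TMM-scaled totals of the tested genes, and log2 CPM a prior count of 2. RPKM divides CPM by merged exon length. Alternatives were DESeq2 1.42.0, limma-voom (limma 3.58.1) with and without quality weights, other scalings and filters, a 0.1 threshold, and fits with 1 library left out. The fits were first tested on simulated data.

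The members and gene lists were chosen with earlier results of these data known. Named were all members, up to 4 genes per list with the lowest p, a set fixed by name, and the nearest profiles. The 3 nearest were not all named for Spp1, Gpnmb and Cd9. Plin2, Angptl4, Cd163, Adipoq, Plin1, Retn, Siglecf, Alox15, Ly6c2, Fcgr1, Mmp8, Ctsa and the Gm models fall outside this rule and were named after their values were seen. An engineered allele and 1 gene that the rule names are not reported here. Replicate numbers follow deposition order and pair nothing. The labels do not state that libraries came from separate animals, so p-values reflect only how far these samples differ, which may be technical. Counts may include PCR copies, which are not independent molecules. Promoter sequences are from RefSeq, and 7 of 9 members matched.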

Additional observations from a re-analysis of the deposited data

How the results depend on the processing

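No member passed the 0.05 threshold in edgeR under other scalings, a filter at a count of 10 in 3 libraries, without genes for ribosomal proteins, haemoglobin and mitochondrial RNA or a threshold of 0.1, nor in limma-voom with or without quality weights. The count of members called higher was 3 in DESeq2, beside 3.57% of all genes. It was also 3 in edgeR without a filter on low counts, beside 0.886%. In both cases these were Trem2, Apoe and Pltp. With 1 library left out the count called higher ran from 0 to 4 in edgeR, beside 0% to 1.21% of all genes. In DESeq2 it ran from 3 to 4, beside 1.44% to 6.19%. The count under an unadjusted p of 0.05 ran from 3 to 5 in edgeR and from 4 to 6 in DESeq2. The share of all genes under this p is not given for these fits. The median log2 difference of the members ran from 0.48 to 0.78 in edgeR and in DESeq2 stood at 0.43, 0.69, 0.71 and 0.76 at its most distant, and from 0.54 to 0.60 under the other settings.

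Signs held for Trem2, Apoe, Pltp, Lpl, Lgals3 and Spp1 under all settings. Fabp5 turned to 0.04 without normoxia replicate 1, 0.05 without normoxia replicate 3 and 0.09 without hyperoxia replicate 3 in edgeR, and to 0.11 without hyperoxia replicate 3 in DESeq2; its lowest value with 1 library left out was -0.20. Without hyperoxia replicate 2, Gpnmb turned to 0.07 in edgeR and 0.04 in DESeq2, and Cd9 to 0.13 and 0.11; their lowest values, without hyperoxia replicate 3, were -0.66 and -0.45. Spp1 ran from 0.38 to 0.78 in edgeR with 1 library left out, with the highest value without hyperoxia replicate 2. The cause of these shifts was not tested. No paired analysis was possible because the labels give no replicate numbers. The lowest count of a member in any library was 66, for Lpl.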
